A study of Mus musculus with 6 samples.

Results

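The AP-1 and BATF factors are basic leucine zipper (bZIP) transcription factors, described here across splenic T cells treated with urolithin A or with its vehicle. The 9 genes were taken by symbol: Jun, Junb and Jund of the JUN family, Fos, Fosb, Fosl1 and Fosl2 of the FOS family, and Batf and Batf3 of the BATF family. All 9 were among the 18828 genes of the count table, each under 1 gene ID.

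In the GENCODE M21 annotation of mm10, Jun spans chr4:95049034-95052222 and Junb chr8:84974484-84978718, both on the minus strand, and Jund chr8:70698949-70700616 on the plus strand. Fos spans chr12:85473890-85477273, Fosl1 chr19:5447547-5455946 and Fosl2 chr5:32135801-32157842 on the plus strand, and Fosb chr7:19302696-19310051 on the minus strand. Batf spans chr12:85686669-85709087 and Batf3 chr1:191097847-191108945, both on the plus strand. All 9 are protein-coding genes, and each count covers the gene as a whole.

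JUN proteins bind DNA as dimers, with another JUN protein, with a FOS protein or with a BATF protein, at a site whose usual letters are TGACTCA. FOS and BATF proteins do not bind well on their own and depend on a JUN partner. In T cells, signals from the antigen receptor and CD28 raise Jun and Fos transcripts and activate JUN protein through kinases, and the dimers then act with NFAT at cytokine genes. BATF with a JUN partner recruits IRF4 to composite sites and is known for its part in effector and helper T cell differentiation, while BATF3 is best known as a factor of cross-presenting dendritic cells and is also made by activated T cells.

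The T cells came from spleens of FVB mice, labelled wild type. DMSO or 50 µM urolithin A, a gut microbial product of ellagitannins, was added together with beads that engage CD3 and CD28, and RNA was taken after 48 h. Each group has 3 libraries, lettered a, b and c. All 6 libraries were therefore from stimulated cells, so the values compare urolithin A with its vehicle and not stimulated with resting cells. Nothing in the labels ties a letter to its own mouse or culture. The p-values therefore measure only the spread among these libraries, and that spread may be technical. The labels used here give neither the number and age of the mice nor the purity of the isolated cells.

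The libraries held between 12738059 and 19081219 counts. Counts of Rn18s, an 18S ribosomal RNA gene, made up 17.6% of DMSO replicate b and 3.97% of urolithin A replicate a, against 0.0687% to 0.887% in the other 4. The 10 T cell markers examined were all detected, and 1 was higher (Cd247) and 2 were lower (Lat and Lck) with urolithin A. Their summed level was 3255 to 3459 CPM in the DMSO libraries and 3176 to 3406 CPM in the others. CPM is a gene's count divided by the library's summed count of tested genes, after TMM scaling to a common level over most genes, and multiplied by 1e+06.

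Of the 9 genes, 1 was higher with urolithin A (Jun), 5 were lower (Fosl2, Batf3, Jund, Batf and Junb), 2 did not pass the test (Fos and Fosb), and Fosl1 had too few counts to be tested. A call is an adjusted p under 0.05 in limma voom, with Benjamini-Hochberg adjustment over all 14444 genes tested. In that fit 33.7% of all tested genes were called, 17.7% higher and 16% lower, so a call on its own was common in this comparison. Of the called genes 52.6% were higher. Where libraries were scaled by total count, Rn18s included, 70.6% were higher and 3 of the 5 lower members stayed called. The groups did not overlap for the 6 called members, where 46.8% of all tested genes did not overlap either. The members' median log2 fold change was -0.39 over the 8 tested, beside 0.01 over all tested genes. The median size of the log2 change was 0.47 among the 6 called members and 0.5 among all called genes. These are bulk RNA values, in which fewer cells of a type and less RNA per cell cannot be told apart.

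**Figure D1:**
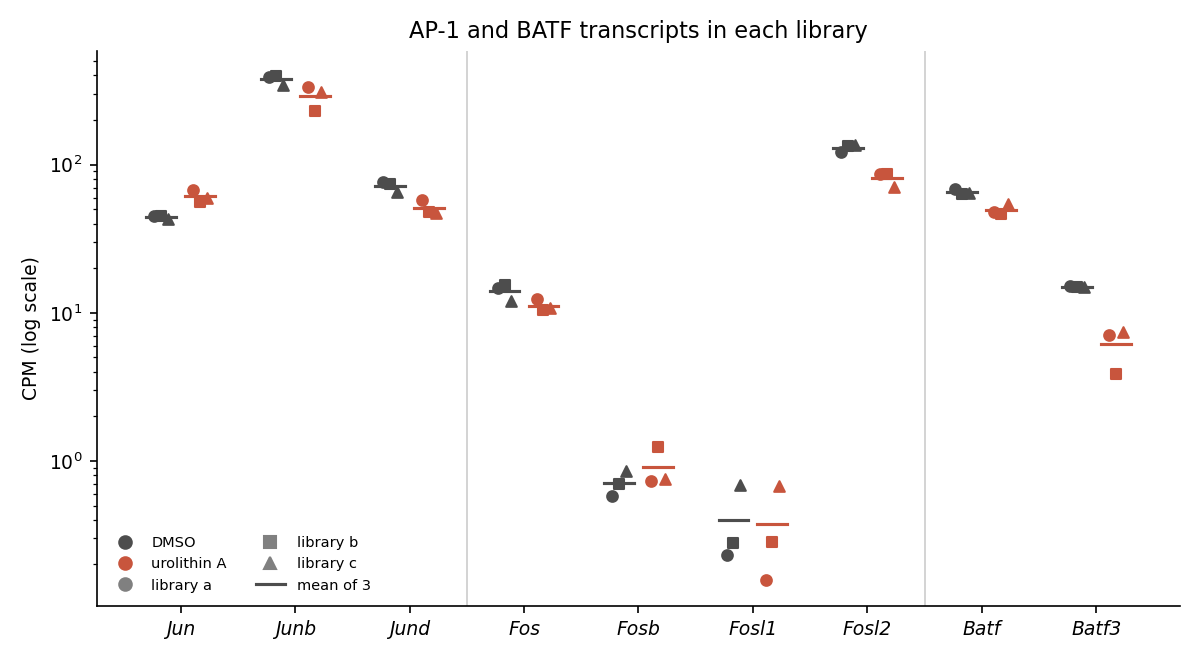
Level of each AP-1 and BATF gene in every library, in CPM on a log axis, for 3 DMSO and 3 urolithin A libraries; points are single libraries and the short line is the group mean. Jun is the member whose 3 urolithin A libraries all lie above the DMSO ones, Batf3, Fosl2, Jund, Batf and Junb lie below them, and Fos, Fosb and Fosl1 overlap.

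Promoter sequences are shown for the member that rose, Jun, and for the 2 that fell with the smallest adjusted p, Fosl2 and Batf3. Each runs from 250 bases before to 50 bases after the RefSeq transcription start, 5′ to 3′ on the gene's own strand. The build is GRCm38.p6. Capitals mark matches to the motifs searched. Jun lies at chr4:95052173-95052472 on the minus strand, Fosl2 at chr5:32136222-32136521 on the plus strand and Batf3 at chr1:191098164-191098463 on the plus strand. The RefSeq start lies 671 bases downstream of the first base of the GENCODE M21 span in Fosl2 and 567 bases downstream in Batf3, and in Jun it is the same base.
Jun: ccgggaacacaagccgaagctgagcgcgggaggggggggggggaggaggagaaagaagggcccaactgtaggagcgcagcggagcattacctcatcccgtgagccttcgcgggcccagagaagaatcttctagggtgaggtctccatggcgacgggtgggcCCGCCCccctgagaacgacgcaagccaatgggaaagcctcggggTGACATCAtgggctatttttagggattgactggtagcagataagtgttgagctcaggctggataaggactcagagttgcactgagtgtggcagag
Fosl2: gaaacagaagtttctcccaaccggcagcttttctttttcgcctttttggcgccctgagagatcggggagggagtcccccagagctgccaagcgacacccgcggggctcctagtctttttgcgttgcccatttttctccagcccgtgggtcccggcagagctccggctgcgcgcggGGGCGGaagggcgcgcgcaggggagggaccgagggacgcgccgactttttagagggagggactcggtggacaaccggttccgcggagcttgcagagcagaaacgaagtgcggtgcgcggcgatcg
Batf3: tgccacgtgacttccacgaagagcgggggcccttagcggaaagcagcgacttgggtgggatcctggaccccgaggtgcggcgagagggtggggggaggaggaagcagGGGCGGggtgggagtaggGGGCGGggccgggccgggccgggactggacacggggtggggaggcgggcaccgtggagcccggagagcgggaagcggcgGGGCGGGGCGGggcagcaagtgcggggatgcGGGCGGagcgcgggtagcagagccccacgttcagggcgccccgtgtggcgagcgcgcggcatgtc

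Motifs were searched on both strands in the 8 members that matched the RefSeq promoter table and in all 32851 promoters of that table. Fosl1 did not match. The Jund window does not reach the GENCODE M21 span of Jund, whose first base lies 1210 bases downstream of the RefSeq start, so results for that window are not about the start given by GENCODE. The AP-1 site TGACTCA was in none of the 8, and in 5.2% of all promoters. The CRE letters TGACGTCA were also in none, and in 1.79% of all promoters. The variant TGACATCA, known from the JUN promoter, was found in Jun alone of the 8, with its first base 45 bases before the start, and in 3.62% of all promoters. The GC box GGGCGG was in 6 of the 8 and in 35.7% of all promoters. Batf3 held 5 matches, which began 143, 125, 46, 41 and 15 bases before the start, and the 2 at 46 and 41 bases share a letter. Fosl2 held 1, beginning 75 bases before the start, and Jun 1 read on the opposite strand of the gene. The TATA box letters TATAAA were in Fos, 33 bases before the start, and in Junb at the RefSeq start itself, which is 30 bases upstream of the GENCODE M21 start, against 13.6% of all promoters. The GC content was 75.7% in the Batf3 window, 64.7% in Fosl2 and 60% in Jun, beside a median of 52.7% over all promoters. A match describes these letters in this window and is not evidence of binding.

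Jun, the founding member of the JUN family, rose with urolithin A. Its level was 45, 44.9 and 43.1 CPM in DMSO replicates a, b and c, and 67.7, 55.8 and 59.9 CPM in the urolithin A replicates. Every urolithin A library lay above every DMSO library, and urolithin A replicate a, one of the libraries high in Rn18s, was the highest. The mean went from 44.3 ± 1.08 to 61.1 ± 6.01 CPM (SD, n = 3 each), a ratio of 1.38. The log2 fold change was 0.46 ± 0.09 (SE; 95% interval 0.28 to 0.65; limma voom adjusted p = 0.000925). That change was larger than 84.8% of those of all tested genes. With both libraries high in Rn18s left out (DMSO b and urolithin A a) it was 0.38 and did not pass (adjusted p = 0.051).

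Junb, whose product pairs with BATF in T cells and is a weaker activator than JUN, was lower. Its level was 388, 397 and 343 CPM with DMSO and 336, 230 and 310 CPM in the urolithin A group. The groups were close, with urolithin A replicate a just under DMSO replicate c, and urolithin A replicate b was far below the rest. The mean was 376 ± 28.9 CPM against 292 ± 55.3 CPM (SD, n = 3 each) and the log2 fold change was -0.38 ± 0.12 (95% interval -0.65 to -0.1; limma voom adjusted p = 0.0378). This was the least secure call among the members. It was lost without DMSO replicate a (-0.36, adjusted p = 0.123), without DMSO replicate b (-0.36, adjusted p = 0.098) and without urolithin A replicate c (-0.43, adjusted p = 0.0515), and without urolithin A replicate b it was smaller but called (-0.21, adjusted p = 0.015).

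Jund, the JUN family gene that is expressed most steadily across tissues and is less dependent on stimulation, fell. Its level was 75.9, 73.8 and 65 CPM with DMSO and 57.9, 48 and 47.4 CPM with urolithin A, with no overlap. The mean went from 71.6 ± 5.76 to 51.1 ± 5.88 CPM (SD, n = 3 each), a log2 fold change of -0.48 ± 0.09 (limma voom adjusted p = 0.00125). This call held in all 16 alternative settings. Jun and the other 2 JUN genes thus carried opposite signs in the same libraries.

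Several members lie over a gene on the opposite strand, and although the kit marks strand, the labels do not say whether the counting used it. The antisense RNA Junos at Jun had 7 to 23 counts per library, and its log2 fold change was 0.36 ± 0.46 (limma voom adjusted p = 0.581). Prdx2, a peroxiredoxin gene at Junb, had 134 ± 2.41 CPM under DMSO and 126 ± 8.27 CPM under urolithin A (-0.08 ± 0.07, adjusted p = 0.398). Ccdc85b at Fosl1 fell from 22.4 ± 1.28 to 12.3 ± 2.22 CPM (SD, n = 3 each; -0.87 ± 0.13, adjusted p = 0.000121). At Jund, GENCODE M21 also has a gene on the opposite strand, which is not in the count table, so its level is not known here. Reads of such partners could be split differently under another counting.

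Fosl2 (FRA-2), a FOS family gene whose product lacks the strong activation domain of FOS, fell with the smallest adjusted p among the members. Its level was 121, 133 and 136 CPM with DMSO and 86, 86.9 and 71.1 CPM with urolithin A. The 3 urolithin A libraries were all far below the lowest DMSO library. The mean went from 130 ± 8.25 to 81.3 ± 8.91 CPM (SD, n = 3 each), a ratio of 0.626, and the log2 fold change was -0.67 ± 0.09 (95% interval -0.86 to -0.49; limma voom adjusted p = 4.14e-05). Only 6.09% of tested genes had a lower log2 fold change. Over the alternative settings it ranged from -0.74 to -0.59 and was called in each.

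Fos, the immediate early gene that peaks within the first hour after stimulation, was measured here at a late time. Its level was 14.6, 15.3 and 12 CPM with DMSO and 12.4, 10.5 and 10.7 CPM with urolithin A, and urolithin A replicate a lay above DMSO replicate c. The log2 fold change was -0.3 ± 0.13 (95% interval -0.57 to -0.02; limma voom adjusted p = 0.0921), so it did not pass. Without DMSO replicate c it did (-0.41, adjusted p = 0.0392).

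Fosb, another early FOS gene, had 10 to 22 counts per library. Its mean was 0.708 ± 0.135 CPM with DMSO, against 0.91 ± 0.292 CPM in the urolithin A group (SD, n = 3 each). At that depth the 95% interval of the log2 difference ran from -0.43 to 1.07, around 0.32 ± 0.35 (limma voom adjusted p = 0.511), so neither a doubling nor a modest fall could be told from no change. Without urolithin A replicate b, the highest library, the value was 0.07, without DMSO replicate a it was 0.18, and over the fits that left out 1 library it ran up to 0.47.

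Fosl1 (FRA-1), which is often raised by sustained ERK signalling in other cell types, had 4, 4 and 13 counts with DMSO and 3, 5 and 9 counts with urolithin A. It did not reach the count filter, which asked 3 libraries for the equivalent of 10 counts at the median library size. A fit without that filter gave a log2 fold change of -0.31 ± 0.59 (adjusted p = 0.751). In both groups the replicate c libraries had the most Fosl1 counts, and a difference between the groups was not detectable at this depth.

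Batf, the main BATF gene of T cells, fell by 0.4 on the log2 scale. Its level was 68.5, 63.5 and 64 CPM with DMSO and 47.9, 46.5 and 54.6 CPM with urolithin A, with no overlap. The mean went from 65.4 ± 2.75 to 49.7 ± 4.36 CPM (SD, n = 3 each), a ratio of 0.76 (log2 fold change -0.4 ± 0.08, 95% interval -0.58 to -0.23; limma voom adjusted p = 0.0018). With libraries scaled by total count alone, Rn18s included, it was -0.31 and did not pass (adjusted p = 0.121). Under TMM without ribosomal RNA and mitochondrial genes it was -0.4 (limma voom adjusted p = 0.00214).

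Batf3 had the largest fold change among the members. Its level was 15.2, 15 and 14.9 CPM with DMSO and 7.13, 3.85 and 7.46 CPM with urolithin A, from 215 to 280 and from 68 to 137 counts per library. The DMSO libraries were nearly alike, whereas the urolithin A libraries differed from each other, replicate b being the lowest. The mean went from 15 ± 0.178 to 6.15 ± 1.99 CPM (SD, n = 3 each), so urolithin A libraries held 41% of the DMSO level. The log2 fold change was -1.36 ± 0.19 (95% interval -1.77 to -0.95; limma voom adjusted p = 0.000101), and 0.99% of tested genes had a lower one. It ranged from -1.55 to -1.04 over the alternative settings and was called in all 16.

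Because Batf3 also marks dendritic cells, their markers were read beside it. The summed level of the dendritic cell markers was 10 to 10.3 CPM with DMSO, against 15 to 19.2 CPM in the urolithin A group. Of 9 markers listed, 8 were in the table, 4 were tested and 3 were higher (Cadm1, Zbtb46 and H2-Ab1, an MHC class II gene that B cells also make). Xcr1, the chemokine receptor of the cross-presenting subset, had 2.44 ± 0.676 CPM under DMSO and 1.44 ± 0.319 CPM under urolithin A (SD, n = 3 each; log2 fold change -0.76 ± 0.28, limma voom adjusted p = 0.0527). The markers Itgax, Flt3 and Siglech were under 1 CPM in all libraries and Cd209a had no count. The part of dendritic cells in the Batf3 result was not tested.

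Some markers of other cells were higher as well. The summed B cell markers were at 164 to 180 CPM with DMSO and 207 to 251 CPM in the urolithin A group, with 3 of 7 tested genes higher. NK cell markers were at 75 to 80.2 CPM and 94.4 to 120 CPM, with 2 of 4 higher. Most of that sum was Klrk1 (59 ± 1.42 and 80.9 ± 7.53 CPM) and Klrd1 (16.2 ± 1.82 and 23 ± 5.47 CPM), receptor genes that CD8 T cells also express, while Ncr1, which is more specific to NK cells, was under 1 CPM on average in both groups. Macrophage and monocyte markers summed to 22.3 to 26 CPM and 26 to 31.6 CPM, with 1 of 3 higher. That gene was Mpeg1 (2.36 ± 0.073 and 7.55 ± 0.69 CPM), whereas Ccr2 was at 16.8 ± 1.05 and 13.9 ± 2.35 CPM and did not pass (SD, n = 3 each; limma voom adjusted p = 0.105), and Lyz2, Csf1r and Adgre1 were under 1 CPM in all libraries. Neutrophil markers summed to at most 0.424 CPM, and erythroid markers were at 2.23 to 2.57 CPM and 3.8 to 4.45 CPM. Such cells can express AP-1 genes too, and their part in the members' changes was not tested.

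**Figure D2:**
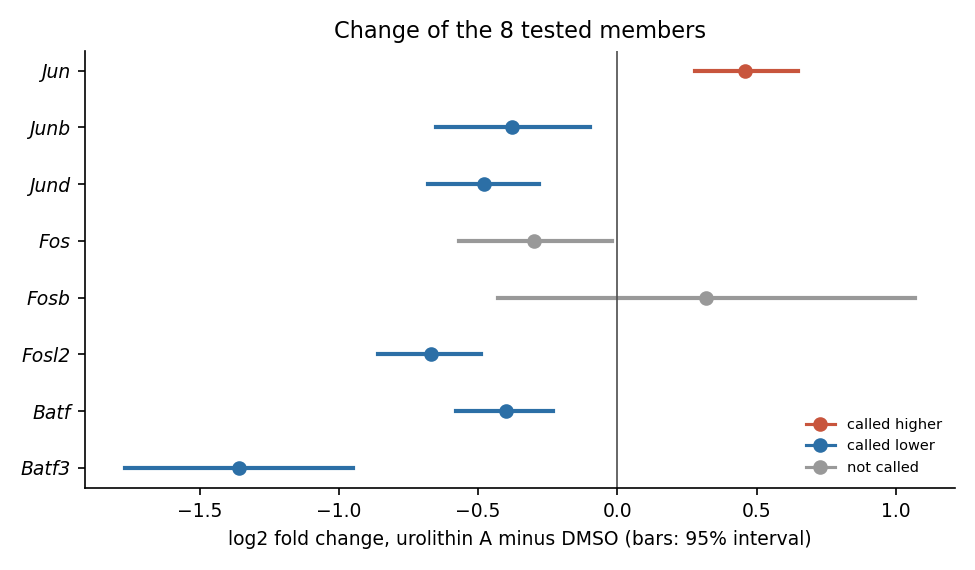
Log2 fold change of each tested member, urolithin A against DMSO, in the limma voom fit of all 6 libraries; points are the estimates and bars the 95% intervals. Jun lies at 0.46, Batf3 at -1.36, and the intervals of Fosb and of no other member reach 0.

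To compare levels between genes, counts were divided by gene length. On the TPM scale, a count per length relative to the sum over genes, with the union of each gene's exons as its length, Junb was the most abundant member in both groups, at 549 ± 36.8 TPM with DMSO and 468 ± 95.9 TPM with urolithin A (SD, n = 3 each). Batf (157 ± 14.9 TPM) and Jund (144 ± 13 TPM) came next with DMSO, and their ranges overlapped. Jun (46.8 ± 2.71 TPM) and Fosl2 (45.2 ± 3.29 TPM) overlapped as well in DMSO. Batf3 at 31.7 ± 2.16 TPM and Fos at 19.9 ± 1.95 TPM followed, each apart from its neighbours, while Fosl1 and Fosb were under 1 TPM on average and overlapped.

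With urolithin A, 2 relations in that order differed. Jun, at 70.6 ± 8.42 TPM, no longer overlapped Fosl2, at 30.9 ± 3.64 TPM (SD, n = 3 each). Batf3, at 14.2 ± 4.72 TPM, now lay on average below Fos, at 17.5 ± 1.98 TPM, and overlapped it. Batf (130 ± 11 TPM) and Jund (113 ± 15.4 TPM) still overlapped. With the longest transcript as the length, Fosl2 (51.9 TPM) rather than Jun (36.3 TPM) was the higher of the pair with DMSO, and Jun (54.2 TPM) was above Fosl2 (35.2 TPM) with urolithin A. With that length Batf and Jund did not overlap in either group, at 163 to 194 and 105 to 123 TPM with DMSO and at 136 to 159 and 79.2 to 100 TPM with urolithin A. Batf3 (33.1 to 37 TPM) then overlapped Jun (34.6 to 38.1 TPM) with DMSO, and with urolithin A its mean of 15.7 TPM was above that of Fos, 15 TPM, with overlapping ranges. The order of these neighbours thus rests on the gene model, whereas Junb was the highest and Fosb and Fosl1 the lowest with either length. TPM was not scaled by TMM. With exon unions, the DMSO and urolithin A ranges of Batf overlapped (141 to 171 and 120 to 142 TPM). Those of Junb did as well (519 to 591 and 362 to 550 TPM). With the longest transcript, the group ranges overlapped for Junb and not for Batf.

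Within the JUN family, Jun made up 6.18%, 6.11% and 6.7% of the summed TPM in the DMSO libraries and 10.5%, 12% and 10.3% in the urolithin A libraries. Junb took 74.2% ± 0.466 with DMSO and 71.6% ± 2.93 with urolithin A, and Jund 19.5% ± 0.401 and 17.5% ± 2.05 (SD, n = 3 each). The summed JUN family level was 741 ± 51.5 TPM and 651 ± 116 TPM, and these sums overlapped between the groups. The FOS family sum was 66.2 ± 2.21 TPM and 49.7 ± 4.53 TPM, with Fosl2 at 68.2% ± 2.9 and 62.2% ± 2.8 of it. The BATF family sum was 188 ± 17.1 TPM and 144 ± 15 TPM. Batf3 was 16.3%, 17.2% and 17% of the latter in the DMSO libraries and 11.6%, 6.8% and 10.7% in the urolithin A libraries.

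**Figure D3:**
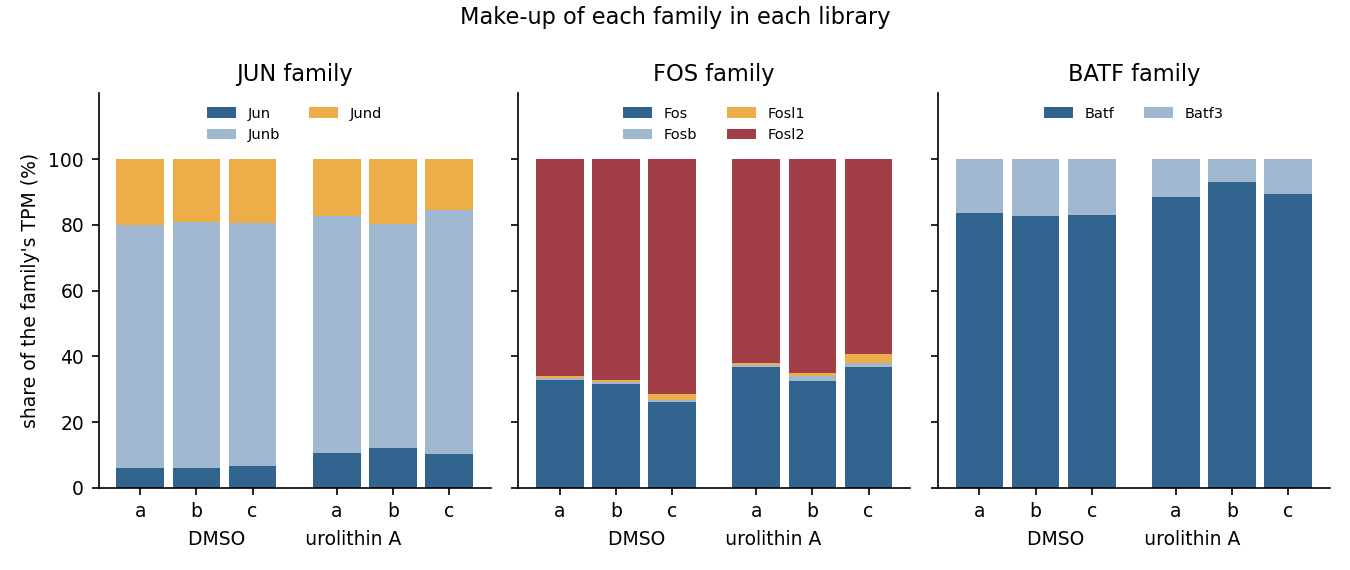
Share of each gene in the summed TPM of its family (percent, bars from 0), for the JUN, FOS and BATF families in each of the 6 libraries. Junb, Fosl2 and Batf are the largest shares of their families in all 6, the Jun share is higher and the Batf3 share lower in each urolithin A library.

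The ratio of 2 genes' counts within a library does not depend on how libraries are scaled, although it mixes their lengths and is not a ratio of molecules. Per 100 Junb counts there were 11.6, 11.3 and 12.6 Jun counts with DMSO and 20.1, 24.3 and 19.3 with urolithin A. Per 100 Jund counts there were 59.3, 60.9 and 66.2 Jun counts with DMSO and 117, 116 and 126 with urolithin A. Neither pair of groups overlapped.

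Per 100 Fosl2 counts there were 37.3, 33.7 and 31.7 Jun counts with DMSO and 78.6, 64.3 and 84.3 with urolithin A. Per 100 Batf counts there were 22.2, 23.5 and 23.2 Batf3 counts with DMSO and 14.9, 8.29 and 13.7 with urolithin A. The shift of Jun against the other 2 JUN genes, and of Batf3 against Batf, was thus seen in each urolithin A library whatever the scaling. It is given as a description, with no test. Jund per 100 Junb was 19 ± 0.486 with DMSO and 17.8 ± 2.84 with urolithin A (SD, n = 3 each), and those values overlapped.

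**Figure D4:**
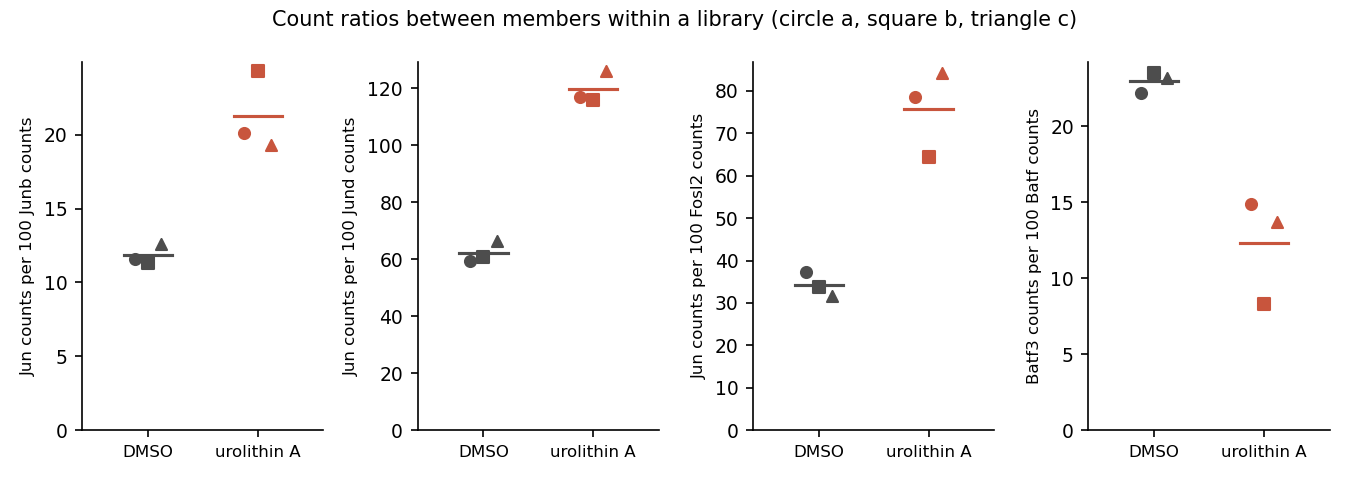
Ratios of counts between pairs of members within each library, per 100 counts of the second gene on a linear axis. Points are single libraries and the short line is the group mean. The 3 urolithin A libraries lie above the DMSO libraries for Jun over Junb, over Jund and over Fosl2, and below them for Batf3 over Batf.

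The genes around AP-1 were read from lists, described by counts beside the same 33.7% of all tested genes called and the median log2 fold change of 0.01. Among 22 tested genes of other bZIP factors, 5 rose and 10 fell, with a median log2 fold change of -0.13. Bach2, a repressor that competes for AP-1 sites and restrains effector programmes, rose from 37 ± 0.789 to 62.6 ± 4.05 CPM (log2 fold change 0.76 ± 0.08; limma voom adjusted p = 7.1e-06). Nfil3, known for its part in cytokine expression and NK cell development, fell from 240 ± 2.64 to 89.5 ± 2.97 CPM (-1.42 ± 0.07, adjusted p = 3e-09). Chosen after their values were seen, Batf2 rose from 0.796 ± 0.177 to 2.04 ± 0.594 CPM (1.28 ± 0.32, adjusted p = 0.00618), whereas Mafg (-0.77) and Maff (-1.14) fell, so the 3 BATF genes did not share a sign.

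Of 9 genes for partner factors on composite sites, 3 rose and 0 fell in limma voom, with a median of 0.11. At an unadjusted p under 0.05 the counts were 4 and 0, and limma trend also called 0 lower. By the naming rule the gene is Nfat5, listed as a relative of the calcium-regulated NFAT factors. Whether its product partners AP-1 was not examined. Nfat5 rose from 36.7 ± 2.98 to 49.9 ± 5.37 CPM (0.44 ± 0.1, limma voom adjusted p = 0.00281). Irf4, the partner of BATF–JUN dimers, and Nfatc1 were the other risers, named after their values were seen. Irf4 was at 482, 490 and 475 CPM with DMSO and 675, 541 and 697 CPM in the urolithin A group (0.39 ± 0.09, adjusted p = 0.00304), and so moved the opposite way to Batf. Without both libraries high in Rn18s no gene of this list was called, with Nfat5 at 0.32 (adjusted p = 0.116) and Irf4 at 0.34 (adjusted p = 0.0789). Irf8, an alternative partner, was at 278 ± 11.1 and 255 ± 31.7 CPM (-0.13 ± 0.09, adjusted p = 0.273).

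The MAP kinase cascades phosphorylate JUN and act on Fos transcription. Of their 25 listed genes, 5 rose, 3 fell and 17 were not called, where 33.7% of all tested genes were called. The median change of the list was -0.02 (log2). Leaving out urolithin A replicate b gave 5 fallers. Map3k7 (TAK1), an upstream kinase of the JNK and p38 branches, went from 173 ± 8.46 to 347 ± 16.1 CPM (1.01 ± 0.07; limma voom adjusted p = 1.03e-07). Map2k1 (MEK1), which activates ERK, fell from 203 ± 4.2 to 152 ± 2.8 CPM (-0.42 ± 0.07, adjusted p = 0.00023). With total count scaling none of the 25 was called lower, with Map2k1 at -0.33 (adjusted p = 0.076).

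Factors that act on the promoters of early genes, the serum response and MEF2 group, held 6 risers and 1 faller among 9 tested, with a median of 0.32. Elk3, a ternary complex factor, rose from 27.8 ± 1.17 to 52.2 ± 2.45 CPM (0.9 ± 0.08; limma voom adjusted p = 1.75e-06). Srf itself, the serum response factor, fell from 70.4 ± 5.18 to 50.8 ± 10.7 CPM (-0.49 ± 0.13, adjusted p = 0.0131), a call that was lost without DMSO replicate a (-0.46, adjusted p = 0.0582). Without urolithin A replicate b the Srf fold change was -0.31 (adjusted p = 0.00402). The number of risers was 3 without DMSO replicate b, and also without both libraries high in Rn18s.

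Of 16 other immediate early genes, 5 rose and 3 fell, with a median of 0.15. Nr4a3, an orphan nuclear receptor that follows antigen receptor signals, rose from 7.96 ± 1.58 to 45.7 ± 5.95 CPM (2.54 ± 0.15; limma voom adjusted p = 2.91e-08). Ier3, a stress-response early gene, fell from 65.9 ± 5.81 to 17.8 ± 1.74 CPM (-1.89 ± 0.1, adjusted p = 9.13e-09). The number of risers was 2 without both libraries high in Rn18s and 8 without urolithin A replicate b. Of 10 genes for AP-1 protein turnover, 0 rose and 2 fell in limma voom, with a median of -0.2. At an unadjusted p under 0.05 the counts were 0 and 4, and limma trend also called 0 higher. Cops5 (JAB1), first described as a JUN coactivator, went from 120 ± 3.25 to 102 ± 5.2 CPM (-0.23 ± 0.07, adjusted p = 0.0226). The Cops5 call was lost under 6 settings, among them total count scaling (-0.14, adjusted p = 0.539), and the list held 0 to 5 fallers over the alternatives.

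Genes listed as AP-1 or BATF targets, not all of them established as such in T cells, moved both ways. There were 9 risers and 11 fallers among 25 tested, with a median of 0.11. Fasl, whose product triggers cell death through FAS, was at 28.2 ± 1.51 CPM with DMSO and rose to 70.9 ± 5.44 CPM (1.32 ± 0.09; limma voom adjusted p = 7.76e-08). Gzmb, which encodes granzyme B of cytotoxic granules, was at 2173 ± 38.9 CPM and fell to 1206 ± 70.2 CPM (-0.85 ± 0.07, adjusted p = 2.62e-07). Chosen after their values were seen, the type 2 cytokine genes Il4 (-1.2), Il5 (-1.87) and Il13 (-1.33) fell, as did Il10 (-0.73), Il21 (-1.04) and Prdm1 (-0.89), the gene of the effector factor BLIMP-1. Il5 had few counts, 18, 14 and 16 with DMSO and 4, 5 and 3 with urolithin A, and an SE of 0.39. Ifng (0.73), Csf2 (0.96), Cd69 (0.94) and Plaur (3.14), the last with 1.6 ± 0.238 CPM with DMSO, against 14.4 ± 2.28 CPM in the urolithin A group, rose. Ifng was at 11.2 CPM in urolithin A replicate a, high in Rn18s, and at 6.07 and 6.93 CPM in b and c. With DMSO it was at 4.24 to 5.09 CPM. Csf2 had few counts, 21 to 25 per library with DMSO and 40 to 52 with urolithin A. Il2 did not pass (0.76 ± 0.32, adjusted p = 0.0773).

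**Figure D5:**
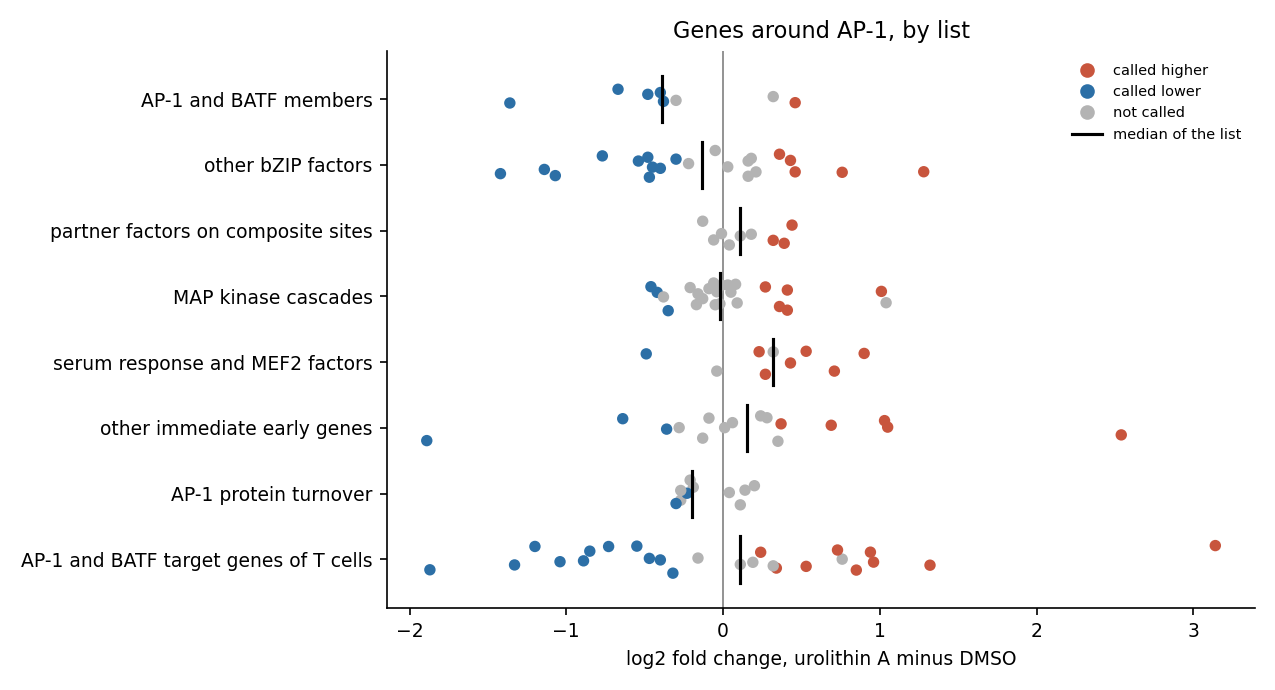
Log2 fold change (urolithin A against DMSO) of every tested gene in the members and the 7 lists; each point is 1 gene, red where called higher, blue where called lower and grey where not called, and the bar is the median of the list. The median lies at -0.39 for the members, -0.2 for the turnover genes and 0.32 for the serum response and MEF2 factors.

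The genes whose levels most resembled Jun and Fosl2 over the 6 libraries were sought among 9545 genes with a mean of at least 5 CPM, by Pearson's r of log2 CPM. For Jun they were Ppp2r5d (r = 0.9953), a regulatory subunit of protein phosphatase 2A, Zc3h12d (0.9951), and Rnf213 (0.9939). For Fosl2 they were Lsm1 (0.9980), an RNA decay factor, Il21 (0.9978) and Evi5 (0.9959). With 6 libraries in 2 groups, any gene that differs between the groups tends to such values, and 975 genes had r above 0.9 with Jun and 766 with Fosl2. Rnf213 rose from 170 to 391 CPM (1.19 ± 0.14), far more than Jun, while Evi5 did not pass the test (-0.22; limma voom adjusted p = 0.144), so likeness over libraries is not likeness in size.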

How the data were processed

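RNA of 6 libraries was sequenced from 200 ng of total RNA each with a stranded kit for mRNA, per the labels' protocols. The submitters' processing notes name bcl2fastq 2.20.0.422, FastQC, STAR 2.5.2a, DESeq2 and mm10. For the counting program, its strand setting and the annotation, no name was found in the labels. The authors deposited read counts per gene, written with decimal commas, and all 112968 values were whole. Because of the commas the columns did not pass as counts in a check of units, so limma voom (limma 3.58.1, R 4.3.3) was the main test. edgeR was not run. The table's gene coordinates match those of GENCODE M21 for 385 of 18725 shared gene IDs, so the text gives those of GENCODE M21 (mm10). 3 more per-library columns match no library analysed here and were not used.

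Counts were scaled by TMM (trims of 30% for M and 5% for A per side). Genes entered with the equivalent of 10 counts at the median library size in 3 libraries and 15 counts in total, which left 14444. The fit had the group as its only term, with robust empirical Bayes moderation and Benjamini-Hochberg adjustment over all tested genes at 0.05. It was tested on simulated counts, with a single spread setting for all genes and far fewer changed genes than were called here. That test does not give the error rate in these data. Depth limits genes under about 1 CPM. TPM used GENCODE M21 exon unions and left out Rn18s. Promoters came from RefSeq on GRCm38.p6.

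The members and lists were chosen with earlier results of these data known. Beside the members, the text names from each list the called gene with the smallest p in each direction, and for the riser and the faller with the smallest p the 3 genes of highest r, leaving out clone and prediction names. Alternatives varied the scaling, the filter, the model, the block and the libraries.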

Additional observations from a re-analysis of the deposited data

How the results depend on the processing

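All tested members kept their sign in every alternative run. Batf3, Jund and Fosl2 were called in all 16. Total counts include Rn18s, which made up 17.6% of DMSO replicate b, and its part in the results of total count scaling was not tested. With total count scaling 3169 genes were called, 932 of them lower, so that 70.6% of the called genes were higher, against 52.6% with TMM. The median log2 fold change of all genes was then 0.0951, against 0.00641 with TMM, 3 members and 18 list genes were called lower, Batf was at -0.31 (adjusted p = 0.121) and Junb at -0.29 (adjusted p = 0.122), and Prdx2 changed sign to 0.01. Without both libraries high in Rn18s, which leaves 4 libraries, 2666 genes were called, 1428 higher and 1238 lower, with 0 members and 19 list genes higher and Jun at 0.38 (adjusted p = 0.051). Without a count filter Junb was at -0.39 (adjusted p = 0.0539). Leaving out single libraries gave 3490 to 5274 called genes. Junb then ranged from -0.51 to -0.21 and was called in 3 of 6 fits, Fos ranged from -0.41 to -0.24 and was called in 1 of 6, and Junos ranged from -0.06 (without urolithin A replicate c) to 0.78. The cause was not tested. Same-letter libraries did not deviate together (r = 0.0935, -0.188 and -0.101). With the letters as a replicate block 4496 genes were called, 2359 higher and 2137 lower, with 1 member higher and 5 lower. Among the lists, total count scaling gave 6 other bZIP fallers (10 with TMM), 0 MAP kinase fallers (3 with TMM) and 0 turnover fallers (2 with TMM). Library quality weights gave 6 MAP kinase and 5 turnover fallers, and the replicate block gave 1 turnover faller. Without both libraries high in Rn18s the partner factors, serum response and immediate early lists held 0, 3 and 2 risers in place of 3, 6 and 5, and the turnover list 0 fallers. edgeR and DESeq2 fits were not run, since the decimal commas kept the columns from passing the check of units, although all values were whole. Depth limits Fosb and Fosl1.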
